A study of Mus musculus with 2 samples.

Results

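The Auts2 and Wbscr17 locus of mouse chromosome 5 carried 32 of the 6629 p300 peaks mapped in the embryonic dorsal cerebral wall. The peaks, numbered 5043 to 5074 in the deposited list, were chosen by position, as those whose midpoint on the mm9 assembly lies between 148.0 kb past the 3′ end of Wbscr17 and 280.8 kb upstream of Auts2, and the region was picked because its peaks are dense. The number of peaks in the region and their spacing are therefore a description. They came from 1 library, made from the dissected dorsal cerebral wall of Swiss Webster mouse embryos at embryonic day 14.5 by chromatin immunoprecipitation with an antibody to p300 and sequencing (ChIP-seq). The tissue is wild type and no treatment was applied. It spans the layers of the dorsal wall, progenitors and neurons together. The authors had cut away choroid plexus, hippocampus with cortical hem, and medial structures. An input library of the same chromatin served the authors as control for peak calling and was not analysed here. With 1 library there was no replicate and no test, so values are set beside those of all 6629 peaks, and intervals are exact Clopper-Pearson 95% intervals that cover counting error only. The list gives no score or read count, so the depth behind a single peak is unknown. Before deposit, the authors had taken out peaks at exons and those less than 2.5 kb from where a transcript starts, so the list cannot show p300 at the promoters of either gene.

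p300 is a histone acetyltransferase that is recruited by transcription factors to active enhancers, which is why its binding away from promoters is used to find candidate enhancers. Such elements can lie in introns or in gene-free stretches and can act over long distances, so the nearest start site need not belong to the gene an element serves. Auts2 encodes a nuclear protein of developing neurons that joins a variant Polycomb repressive complex and can bring p300 to it, and disruption of the human gene is linked to autism and intellectual disability. Wbscr17, also called Galnt17, encodes a Golgi enzyme of the family that starts mucin-type O-glycosylation and is named for the Williams-Beuren syndrome region. Expression was not measured, so which gene any peak serves is not given by these data.

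The sequences below show the middle 300 bp of 7 peaks. Chosen were those at the extremes of width, those nearest to the start of each gene, the closest pair, and the peaks under elt5 and elt8. The study cloned both of these elements of the locus and tested them as enhancers in transgenic mouse embryos. The sequences are read 5′ to 3′ on the plus strand of mm9 (both genes lie on the minus strand). They are the reference sequence, not that of the Swiss Webster embryos. Capitals mark the E-boxes CAGATG and CAGCTG (sites of proneural and other bHLH factors), the homeodomain sites TAATTA and TAATTG, and the Nfi half-site TTGGCA, on either strand.
Peak 5074, nearest to the Auts2 start and narrowest, chr5:132993783-132994082: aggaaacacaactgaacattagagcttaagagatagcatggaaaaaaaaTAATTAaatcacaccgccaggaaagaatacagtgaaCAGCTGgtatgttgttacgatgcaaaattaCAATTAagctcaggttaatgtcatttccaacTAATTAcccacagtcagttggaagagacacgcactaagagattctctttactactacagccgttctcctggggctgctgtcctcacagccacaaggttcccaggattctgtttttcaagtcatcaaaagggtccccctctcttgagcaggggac
Peak 5065, widest, intron 2, chr5:132550189-132550488: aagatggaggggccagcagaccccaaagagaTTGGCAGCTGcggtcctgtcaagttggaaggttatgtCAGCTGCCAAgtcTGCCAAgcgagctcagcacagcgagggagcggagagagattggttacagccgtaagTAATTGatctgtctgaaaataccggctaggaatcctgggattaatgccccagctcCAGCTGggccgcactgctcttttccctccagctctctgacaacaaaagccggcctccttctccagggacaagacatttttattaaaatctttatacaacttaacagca
Peak 5064, under elt8, intron 4, chr5:132505387-132505686: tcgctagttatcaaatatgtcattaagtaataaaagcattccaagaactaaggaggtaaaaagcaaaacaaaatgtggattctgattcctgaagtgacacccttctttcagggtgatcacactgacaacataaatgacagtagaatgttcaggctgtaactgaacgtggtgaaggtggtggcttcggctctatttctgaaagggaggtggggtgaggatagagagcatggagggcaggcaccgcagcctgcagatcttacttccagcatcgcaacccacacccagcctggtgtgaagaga
Peak 5058, under elt5, intron 5, chr5:132277851-132278150: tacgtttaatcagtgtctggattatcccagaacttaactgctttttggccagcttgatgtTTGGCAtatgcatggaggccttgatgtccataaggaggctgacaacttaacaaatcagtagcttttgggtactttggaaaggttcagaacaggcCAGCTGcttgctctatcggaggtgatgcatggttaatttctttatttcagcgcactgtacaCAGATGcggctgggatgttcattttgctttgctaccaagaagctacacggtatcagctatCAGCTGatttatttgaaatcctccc
Peak 5052, closest pair, intron 6, chr5:132121639-132121938: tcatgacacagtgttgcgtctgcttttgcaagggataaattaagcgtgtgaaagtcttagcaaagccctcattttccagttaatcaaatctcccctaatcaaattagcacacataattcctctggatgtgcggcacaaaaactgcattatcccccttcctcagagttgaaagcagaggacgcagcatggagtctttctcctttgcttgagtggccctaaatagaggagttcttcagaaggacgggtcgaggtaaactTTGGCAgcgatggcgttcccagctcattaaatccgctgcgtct
Peak 5051, closest pair, intron 6, chr5:132119129-132119428: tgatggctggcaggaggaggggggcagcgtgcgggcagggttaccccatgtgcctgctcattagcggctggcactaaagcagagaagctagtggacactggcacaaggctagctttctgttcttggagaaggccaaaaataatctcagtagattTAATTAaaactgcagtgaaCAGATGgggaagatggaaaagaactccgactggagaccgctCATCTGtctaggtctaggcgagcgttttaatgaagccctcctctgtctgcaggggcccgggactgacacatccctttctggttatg
Peak 5045, nearest to the Wbscr17 start, between the genes, chr5:131911451-131911750: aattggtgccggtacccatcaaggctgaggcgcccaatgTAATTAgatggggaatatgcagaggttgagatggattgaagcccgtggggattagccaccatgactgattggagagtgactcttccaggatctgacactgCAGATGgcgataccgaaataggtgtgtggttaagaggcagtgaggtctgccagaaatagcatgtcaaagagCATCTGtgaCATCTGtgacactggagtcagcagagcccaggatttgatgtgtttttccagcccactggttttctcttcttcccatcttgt

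The 300 bp differed in how many of these sites they held. Peak 5065 had 7, with 3 copies of CAGCTG, 3 Nfi half-sites and 1 TAATTG. Peaks 5045, 5058 and 5074 had 4 each, but not of the same kind: 3 of 4 were CAGATG in peak 5045, 2 were CAGCTG in peak 5058 and 3 were homeodomain sites in peak 5074. Peak 5051 had 3 sites, and its neighbour 5052, with a midpoint 2.51 kb away, had a single Nfi half-site. Peak 5064 had 0 of them.

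Auts2 (ENSMUSG00000029673, chr5:131913205-133019214, minus strand) spans 1106.0 kb in GENCODE vM1 and held 29 of the 32 midpoints, or 2.62 peaks per 100 kb. Wbscr17 (ENSMUSG00000034040, chr5:131347952-131783948, minus strand) spans 436.0 kb and held 2, or 0.459 per 100 kb. The remaining peak, 5045, lay in the 129.3 kb between the genes, 1.13 kb past the 3′ end of Auts2 and 127.8 kb from the start of Wbscr17, and it was the peak nearest to that start. Of the 29 peaks in Auts2, 1 was within 100 kb of the Auts2 start (that of the transcript with the longest coding region, as for every gene), namely peak 5074 at 23.8 kb. In all 22367 protein-coding genes, 6.57% had a midpoint in their body and 24.2% had 1 within 100 kb of their start.

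**Figure D1:**
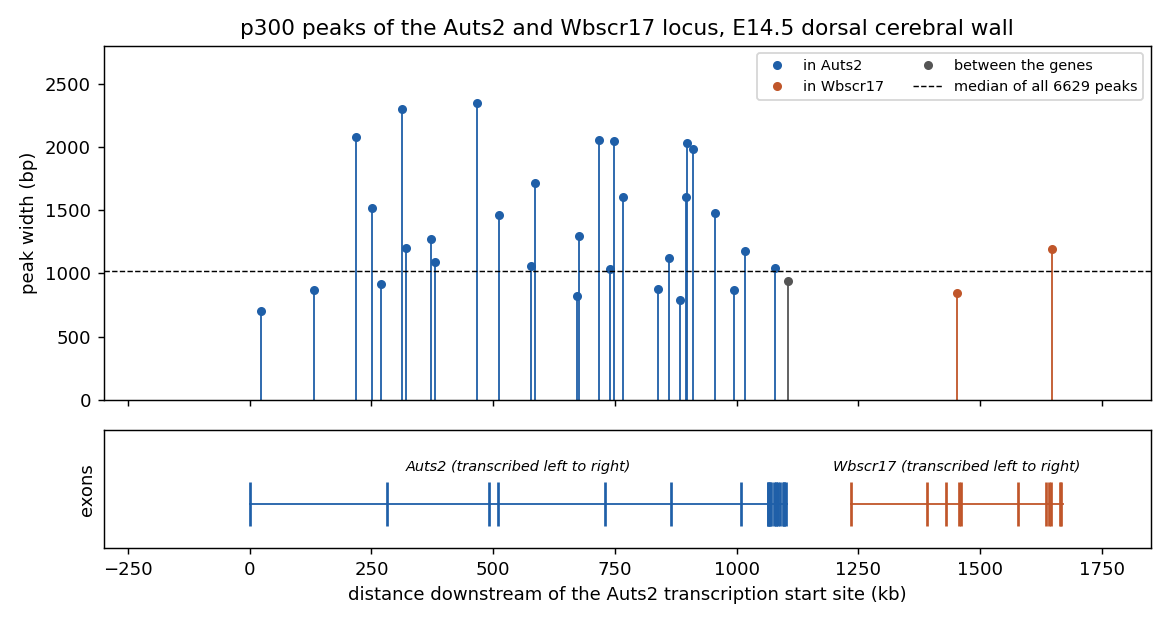
Positions and widths of the 32 p300 peaks of the locus. The x axis is the distance in kb downstream of the Auts2 start, each stem is a peak and its height is the width in bp, the dashed line is the median width of all 6629 peaks (1017 bp), and the lower panel shows the exons of the main transcripts. The 29 peaks in Auts2 reach along the gene from 23.8 to 1078.2 kb, and 3 peaks lie beyond its end.

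The 23.4 kb between peak 5074 and the Auts2 start held no peak. From the start upstream no peak was listed for 588.5 kb, up to peak 5075, and in the 1556.4 kb between Auts2 and the next coding gene, Gatsl2, all 14 peaks lay beyond that point. Peaks 5074 and 5075 were 612.9 kb apart between midpoints. Of the 6609 gaps in the list 1157 (17.5%) were at least as long. On the other side of the locus the gap from peak 5043 to the peak before it was 1707.4 kb between midpoints, and of 6609 such gaps between neighbours on a chromosome 274 (4.15%) were at least as long. That gap took in the whole body of Caln1 (471.2 kb), the next coding gene, which codes for a neuronal calcium-binding protein and held 0 peaks. The region's limits were thus far from any peak: the first and last peaks were 169.5 and 306.1 kb inside them, and the nearest peaks outside were 1537.9 and 306.8 kb beyond.

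All 29 peaks in Auts2 were intronic, which the authors' removal of peaks at exons largely fixed in advance. Counted from its start on the transcript with the longest coding sequence, which has 20 introns, intron 1 (282.4 kb) held 5 peaks, intron 2 (208.5 kb) held 5, intron 4 (219.4 kb) held 6, intron 5 (135.9 kb) held 5, intron 6 (141.8 kb) held 6, intron 7 (56.8 kb) held 1 and intron 13 (4.7 kb) held 1, peak 5046. Intron 3 (19.3 kb) had 0. The 6 introns of 50 kb and over, 1044.8 kb together, thus held 28 peaks, and the other 14, with 53.8 kb, held 1. In peaks per 100 kb the 5 longest introns went from 1.77 (0.575 to 4.13, exact Poisson interval) in intron 1 through 2.4 (0.779 to 5.6), 2.74 (1.0 to 5.95) and 3.68 (1.19 to 8.59) to 4.23 (1.55 to 9.21) in intron 6. Intron 7, the sixth of the long introns and the next after intron 6, was back at 1.76 (0.0446 to 9.81), and the intervals of all 6 overlapped. In 100-kb steps from the start the counts went up and down, from 1 and 1 through 3, 4, 1, 3, 2 and 4 to 5 at 800 to 900 kb, and then 3, 2 and 1, the last being peak 5045 beyond the gene. Intron numbers rest on this transcript model, which includes introns of 0.002 and 0.035 kb. In Wbscr17, peak 5044 lay in intron 3 (25.6 kb) and peak 5043 in intron 9 (17.6 kb), while introns 1 (155.3 kb) and 5 (117.4 kb), its longest, had 0.

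Over the locus 31 of 32 peaks, 96.9% (83.8 to 99.9), were in an intron of a coding gene, against 42.4% of all peaks. The same number, 31 of 32, were over 50 kb from the nearest coding start site, against 63.7% of all peaks, with a median of 344.6 kb against 82.6 kb. This rests on taking 1 start per gene, and Auts2 has 14 annotated transcripts, some of which start inside it. Counted to the start of any transcript of a coding gene, 21 of 32 (65.6%, 46.8 to 81.4) were over 50 kb away, against 53.3% of all peaks, with a median of 168.4 kb against 56.9 kb. The 11 within 50 kb were peaks 5045 to 5053, 5073 and 5074, and the closest was 5046, at 3.48 kb. These shares follow in part from the choice of a region filled by 2 long genes. With peaks at exons removed, the intron share largely reflects how many midpoints lie inside a coding gene. The peak closest to an exon was 5064, 0.59 kb away, and the farthest was 5066, at 96.9 kb. With 1 start per gene, that of Wbscr17 was the nearest coding start to peaks 5043 to 5061, although 5046 to 5061 lie inside Auts2. The start of some Auts2 transcript was nearer to peaks 5045 to 5061 than the Wbscr17 start, for instance at 9.16 kb against 217.3 kb for peak 5047.

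Neighbouring midpoints were 2.51 to 345.7 kb apart, with a median of 33.2 kb over 31 gaps, and the median over all 6609 gaps of the list was 128.1 kb. Of the 31 gaps, 21 (67.7%) were under 50 kb, against 32.0% in the list, and 6 (19.4%) were under 10 kb, against 11.5%. The short ones were spread over the gene rather than gathered in 1 place: 5051 and 5052 in intron 6, 5057 and 5058 in intron 5, 5060 and 5061 and then 5062 and 5063 in intron 4, and 5066 and 5067 and then 5068 and 5069 in intron 2. Peaks 5051 and 5052 were separated by 0.69 kb of sequence outside peaks. Within Auts2 the longest gap was 108.8 kb, between peaks 5073 and 5074, the 2 nearest to its start. Peak density is what picked the region, so these counts say nothing beyond it.

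The rule did not use width. Widths in the locus ran from 701 bp (peak 5074) to 2352 bp (peak 5065), with a median of 1195 bp, and the median of all peaks was 1017 bp, with quartiles of 860 and 1260 bp. Of the 32 peaks, 23 (71.9%, 53.3 to 86.3) were at least as wide as the median of all, which held for 50.1% of all peaks. At 2000 bp and over there were 6 (18.8%), against 4.3%: peak 5051 with 2031 bp, 5057 with 2044 bp, 5059 with 2059 bp, 5065 with 2352 bp, 5069 with 2300 bp and 5072 with 2077 bp. They were in introns 6, 5, 4, 2, 2 and 1 of Auts2, so wide peaks were found along most of the gene and in no single cluster. The 2 peaks of Wbscr17 were 1191 and 847 bp wide, and peak 5045 was 941 bp. A wide peak can be 1 broad region or several sites called as 1, and the list does not tell these apart.

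**Figure D2:**
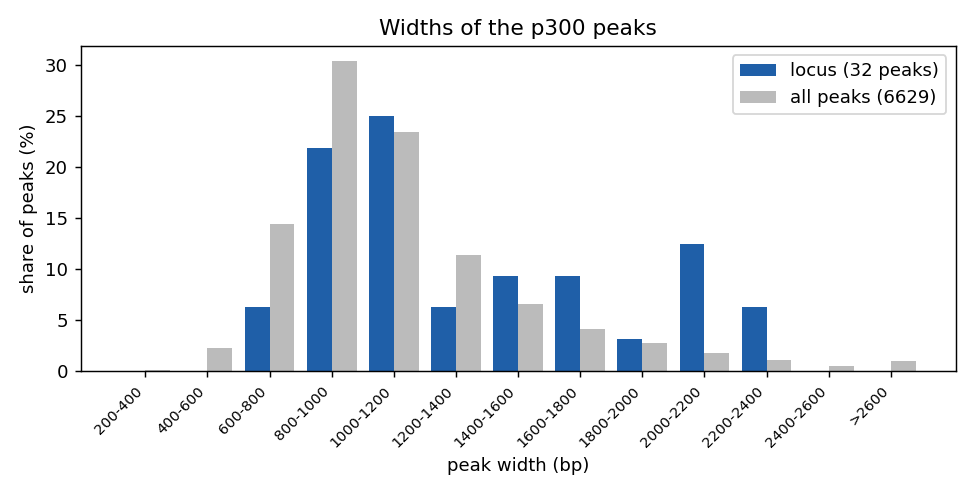
Share of peaks (y axis, %) by width in steps of 200 bp (x axis, bp) for the 32 peaks of the locus and for all 6629 peaks. The locus has a larger share than the list in the steps from 2000 to 2400 bp, where 6 of its 32 peaks fall.

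Base composition was close to that of the list. GC content of the middle 500 bp had a median of 46.7% in the locus and 46.2% in all peaks, and 43.8% in 4081 windows of 500 bp laid end to end over the locus outside peaks. The range in the locus was wide, from 35.0% in peak 5061 to 54.8% in peak 5053. The 3 neighbours in intron 4, peaks 5061, 5062 and 5063, were the lowest, with 35.0%, 35.4% and 39.0%. The count of CpG dinucleotides, the place of DNA methylation, had a median of 8 per 500 bp in the locus, 6 in all peaks and 4 in the windows. Peak 5049 had the most, 19, while peak 5073 was the single peak with 0, a state found in 2.05% of all peaks.

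Sites of 17 patterns were counted in the middle 500 bp of each peak on both strands, by exact letters. A match describes the letters and does not show binding. CAGATG was the most frequent: 21 of 32 peaks held it (65.6%, 46.8 to 81.4), against 57.4% of all peaks and 33.7% of the windows outside peaks. CAGCTG was in 12 (37.5%, 21.1 to 56.3), against 39.7% and 19.4%. At least 1 of these E-boxes, the kind bound by proneural factors such as neurogenins and NeuroD proteins, was in 25 peaks (78.1%), against 74.1% of all peaks and 46.3% of the windows. CAGGTG, the E-box that Zeb repressors also bind, was in 7 peaks (21.9%, 9.28 to 40.0), against 29.9% and 30.4%, and so was no more frequent in the peaks than around them. Over whole peaks it was in 22 (68.8%), against 51.0% of all peaks. Whole peaks are wider in the locus (median 1195 bp, against 1017 bp), which gives more room for a match. The highest number of CAGATG copies in a single peak was 3, in peaks 5045, 5053, 5055, 5066 and 5067.

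Homeodomain sites came next. TAATTA was in 12 peaks (37.5%), against 31.3% of all peaks and 14.7% of the windows, and TAATTG in 15 (46.9%), against 35.6% and 20.4%. Together they marked 20 peaks (62.5%, 43.7 to 78.9), against 52.1% and 31.4%. These letters are read by LIM homeodomain proteins such as Lhx2 and by other homeodomain factors of the cortex. Peak 5047, in intron 7, held 4 copies of TAATTG, the most of any peak of the locus.

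The Nfi half-site TTGGCA, read by nuclear factor I proteins, which promote the maturation of radial glia and neurons, was in 19 peaks (59.4%, 40.6 to 76.3), against 42.3% of all peaks and 22.6% of the windows. In the middle 300 bp it was in 10 (31.2%), against 31.7% of all peaks, so the larger share in the locus was not seen there. The full Nfi dimer (TTGGC, 5 bases of any kind, GCCAA) was in 0 peaks, against 0.272% of all peaks and 0.0245% of the windows. For the Rfx dimer, the site of ciliogenic Rfx factors, the count was also 0, against 2.32% and 0.882%. A count of 0 in 32 peaks is compatible with a share of up to 10.9%, so neither differed detectably from the list.

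An E-box with a homeodomain site was in 15 peaks (46.9%, 29.1 to 65.3), against 36.4% of all peaks and 14.1% of the windows. All 3 kinds, with the Nfi half-site, were in 10 peaks (31.2%, 16.1 to 50), against 15.7% and 3.43%. Peak 5050 alone had none of the 3, a state of 6.06% of all peaks and 28.7% of the windows. These peaks are neighbours from 1 library, and the counts were given no test.

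**Figure D3:**
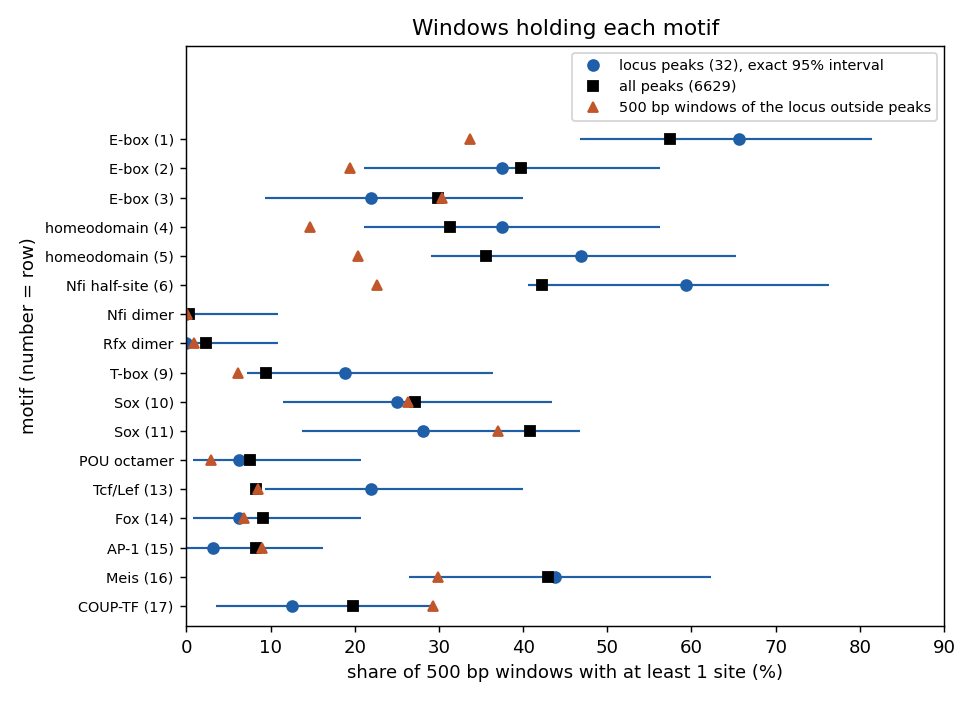
Share of 500 bp windows that hold at least 1 site of each of 17 patterns (x axis, %): the 32 peaks of the locus with exact 95% intervals, all 6629 peaks, and 4081 windows of the locus outside peaks. Row 1 is CAGATG, row 2 is the E-box with CAGCTG and row 3 the one with CAGGTG, rows 4 and 5 are the homeodomain sites with TAATTA and then TAATTG, and rows 10 and 11 are the Sox letters with ACAATG and then ACAAAG. For the E-boxes CAGATG and CAGCTG, the homeodomain sites and the Nfi half-site, peaks of the locus and of the list lie to the right of the windows. The study had already found motifs of these families enriched in the full list.

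The Sox letters ACAATG were in 8 peaks (25%), against 27.2% of all peaks and 26.3% of the windows, and ACAAAG in 9 (28.1%), against 40.8% and 37.0%. Either was in 14 peaks (43.8%, 26.4 to 62.3), against 56.5% and 53.9%, so these short letters did not set the peaks apart from their surroundings. Peak 5072, in intron 1, held 4 copies of ACAATG. Meis letters TGACAG were in 14 (43.8%), against 43.0% of all peaks and 29.9% of the windows, more often than outside the peaks and about as often as in the list, and peak 5057 held 3.

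The T-box letters GGTGTGA, read by Tbr1 and Eomes, factors of deep-layer neurons and of intermediate progenitors, were in 6 peaks (18.8%, 7.21 to 36.4), against 9.5% of all peaks and 6.15% of the windows. These were peaks 5046, 5048, 5050, 5064, 5065 and 5074, with 1 site each, the nearest to a midpoint being that of 5046 at 49 bp. Tcf/Lef letters ATCAAAG, read by the effectors of Wnt signalling, were in 7 (21.9%, 9.28 to 40.0), against 8.21% and 8.53%. The peaks were 5043, 5054, 5056, 5060, 5067, 5072 and 5073, peak 5072 having 2 sites, and in 5043 and 5067 the site was 8 and 9 bp from the midpoint. It is 1 of 17 patterns, and the counts are small.

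COUP-TF letters AGGTCA were in 4 peaks (12.5%, 3.51 to 29.0), against 19.8% of all peaks and 29.3% of the windows. Over whole peaks, which are wider in the locus than in the list, they were in 15 (46.9%), against 43.2%. The remaining patterns were in 1 or 2 peaks. The POU octamer, read by POU factors of neural progenitors, was in 5046, as ATTTGCAT, and in 5057, as ATGCAAAT (6.25%, against 7.6% and 2.89%). Fox letters GTAAACA were in 5054 and 5068 (6.25%, against 9.1% and 6.84%). AP-1 letters TGACTCA were in peak 5051 only (3.12%, against 8.28% and 8.92%).

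**Figure D4:**
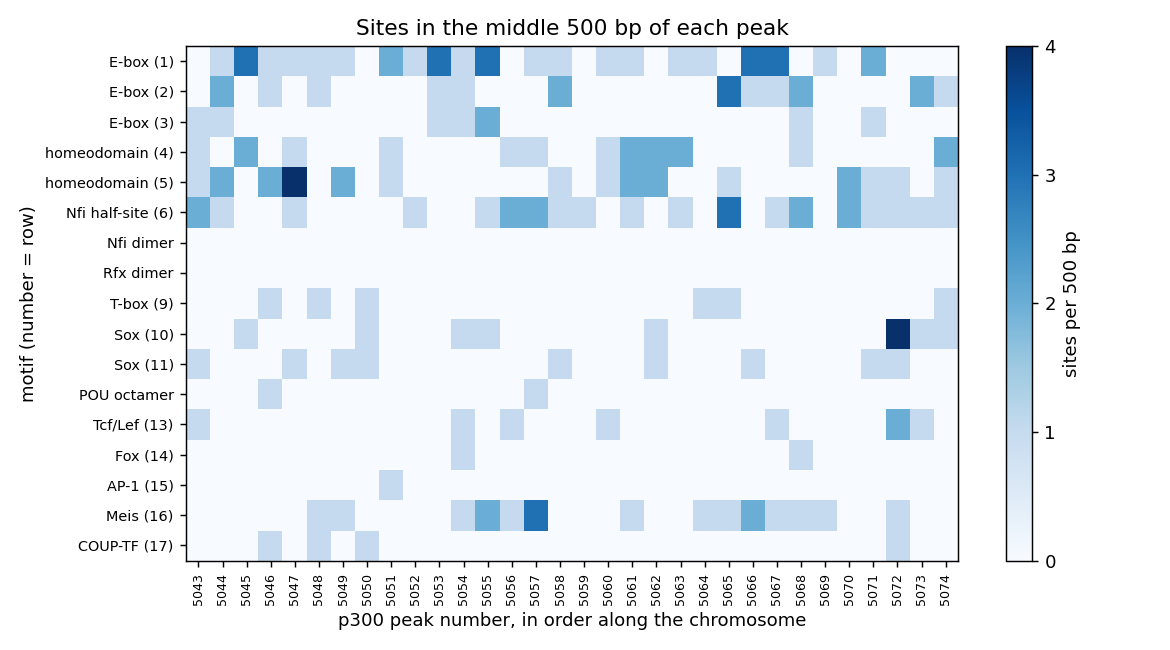
Number of sites (colour, sites per 500 bp, from 0 to 4) of each of the 17 patterns (rows, numbered as in the plot of shares) in each of the 32 peaks (columns, in order along the chromosome from Wbscr17 to the start of Auts2). Sites of the E-box, homeodomain and Nfi rows are spread over nearly all peaks, and peak 5072 has the most sites in total, 11.

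Over all patterns the peaks had 11.7 sites per kb, against 10.9 in all peaks and 7.08 in the windows. The surplus over the windows was in part fixed in advance, since the study had found several motif families enriched in the full list. Single peaks ran from 1 site (5059, a Nfi half-site in 500 bp with 53.6% GC) to 11 (5072), and from 1 to 7 kinds of pattern, with a median of 4.5. Sites of 3 kinds were more frequent near the midpoints than far from them. Median widths were 1195 bp in the locus and 1017 bp in all peaks, so sequence at 500 to 1000 bp lay mostly outside peaks. E-boxes CAGATG and CAGCTG had 4.69 sites per kb within 100 bp of a midpoint and 1.62 at 500 to 1000 bp, and all peaks had 3.73 and 1.33. For homeodomain sites the values were 2.97 and 0.844, against 2.29 and 0.876, and for the Nfi half-site 1.56 and 0.375, against 1.41 and 0.566. The Nfi half-site was no more frequent within 100 bp than at 100 to 200 bp, where the locus had 1.72, while in all peaks it fell to 1.03. Sox letters showed no such slope, with 1.25 at both distances, against 1.78 and 1.63.

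The widest peak, 5065, held an arrangement that was singled out after its sequence was seen. In it an Nfi half-site and a CAGCTG E-box share 2 bases, once as TTGGCAGCTG (chr5:132550220-132550229) and once on the opposite strand as CAGCTGCCAA (chr5:132550257-132550266). Peak 5065 was the 1 peak of the 32 with it (3.12%). Of all peaks 56 (0.845%) had at least 1 such joined site in their middle 500 bp, and of the 4081 windows 6 had (0.147%). Having 2 of them was a property of 1 peak in the list of 6629, and that peak was 5065.

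Both cloned elements lie in Auts2. In the study's transgenic mouse embryos, each of them drove reproducible expression in the developing neocortex. The study also tried its cloned elements by transfection into dissociated neurons of the dorsal cerebral wall. Some that were active in embryos did not score above controls there, and its text does not name them. elt5 and elt8 were placed on mm9 with the study's primers, each of which matched once in the locus. elt5 (chr5:132277409-132278909, 1501 bp, intron 5; forward primer GTCCACGGAGACCAGAGGTA, reverse primer CATGCACATGCACAAGAACA) held all 1036 bp of peak 5058. elt8 (chr5:132504759-132506267, 1509 bp, intron 4; forward primer TGTCAAAGGCAATTAATGAGAAAA, reverse primer GAGATGGTTGCTTCATTGCAT) held 1463 of the 1464 bp of peak 5064. Their sequences differed in make-up. elt5 had 48.4% GC, 5 copies of CAGATG, 2 of CAGCTG and 1 each of the Nfi half-site, TAATTG and the T-box letters. elt8 had 41.6% GC, 2 of CAGATG, 1 of CAGCTG and 1 each of the Nfi half-site, TAATTG and the T-box letters, although the middle 300 bp of its peak, printed above, had none of the E-box, homeodomain and Nfi letters.

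Beyond the patterns, some peaks shared repeats, which were looked for after the sequences had been compared. A run of CA or TG dinucleotides of at least 30 bp lay in 7 of 32 peaks (21.9%, 9.28 to 40.0), against 8.51% of all peaks: 5043 with 47 bp, 5046 with 32 bp, 5050 with 41 bp, 5051 with 37 bp, 5059 with 38 bp, 5068 with 41 bp and 5071 with 39 bp. In 5050 and 5068 the run was in the middle 500 bp, and in the others it was outside. Wide peaks have more room for such a run, and 5 of the 7 were over the median width of the locus. Of the 496 pairs of peaks, 22 shared an identical stretch of 20 bp or more on the plus or minus strand, and 21 of these stretches were made of 1 or 2 dinucleotides. The longest other stretch was 23 bp, in peaks 5051 and 5074. No long identical copy of 1 peak was thus found in another, and diverged copies were not searched for.

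Among coding genes Auts2 stood near the top of the list by peaks in the body. The highest count was 49 in Gm20388, a gene model annotated over 4434.9 kb, followed by Auts2 with 29, Fgfr2, a fibroblast growth factor receptor, with 20 (annotated over 3009.1 kb), Odz4, a teneurin of the neuronal surface, with 16, and Nfib, a nuclear factor I gene, with 15. Most long genes held few. The 200 coding genes of at least 500 kb had a median of 2 peaks, 43 had 0, and together they had 0.368 peaks per 100 kb. None of them was denser than Auts2 (2.62), and the next were Odz4 (2.16), Cdkal1 (2.11) and Robo2 (1.92). The region was picked because its peaks are dense, so this rank is a description. Among the 8 genes with the most peaks in the body, the shorter Nfib (415.6 kb) with 3.61 peaks per 100 kb and Slc39a11 (405.2 kb) with 2.96 were denser. Other genes under 500 kb were not ranked by density. Galntl6, a relative of Wbscr17 about as long as Auts2 (1134.4 kb), held 1 peak.

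**Figure D5:**
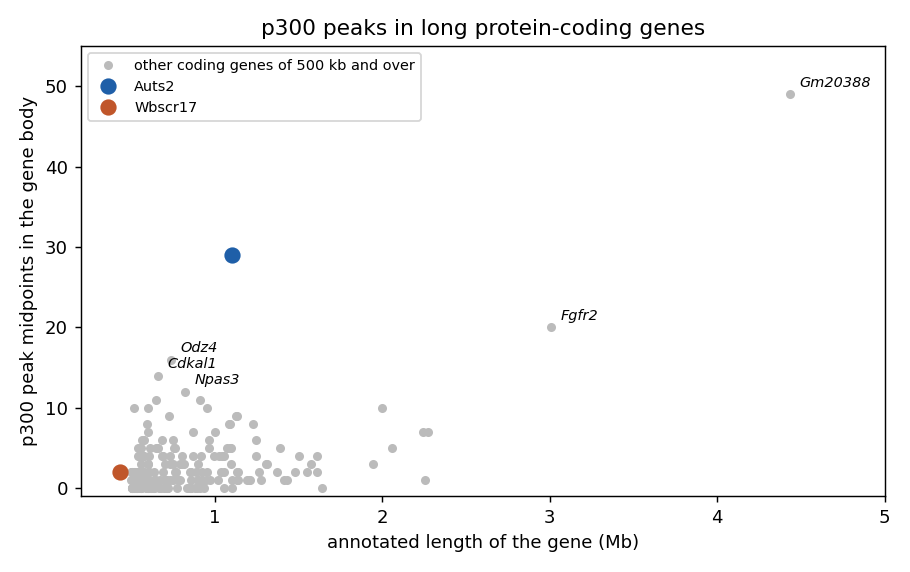
Number of p300 midpoints in the gene body (y axis) against annotated length in Mb (x axis) for the coding genes of at least 500 kb (grey), with Auts2 and, at 436.0 kb, Wbscr17 in colour. Auts2 holds 29 peaks in 1106.0 kb, and the genes near it in length hold 9 or fewer.

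Within 1 Mb, the densest stretch of the locus held 29 peaks, from 5045 to 5073, and was set beside the 4 other densest stretches of the list that do not overlap: those at Mn1 (39 peaks), Gse1 (34), Zfp608 (28) and Nfib (26). Its median width of 1273 bp was above those at Mn1 (1063 bp), Gse1 (1152.5 bp) and Nfib (1151 bp) and below that at Zfp608 (1412 bp). It had 6 peaks of 2000 bp and over, and the others had 3, 0, 3 and 2. The Auts2 peaks were intronic in 28 of 29, as at Gse1 (33 of 34, where the long Gm20388 model is annotated), while at Mn1, Zfp608 and Nfib 1 of 39, 3 of 28 and 15 of 26 were. With peaks at exons removed before deposit, these counts largely reflect how many peaks lie inside coding genes. Median GC content was 46.2%, against 53.6%, 59.7%, 42.3% and 45.9%. Homeodomain sites were in 17 of the 29, against 16 of 39, 10 of 34, 15 of 28 and 10 of 26, and E-boxes CAGATG or CAGCTG in 23, against 32, 27, 18 and 16. The Nfi half-site was in 16, against 18, 11, 11 and 12, and Sox letters in 12, against 18, 17, 17 and 11. Over all peaks the shares, in the same order of patterns, were 52.1%, 74.1%, 42.3% and 56.5%.

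Genes related to the pair by function or family were counted in the same way. Of 12 genes for partners of AUTS2 in its Polycomb complex, for p300 and for relatives of AUTS2 (Pcgf5, Pcgf3, Rnf2, Ring1, Rybp, Yaf2, Csnk2a1, Csnk2a2, Csnk2b, Ep300, Fbrsl1 and Fbrs), 1 had a peak in its body and 4 had 1 within 100 kb of the start (8.33% and 33.3%, against 6.57% and 24.2% of coding genes). Fbrsl1, a close relative of Auts2, was the one with a body peak, and had 3 peaks near its start, the nearest 18.2 kb away. Csnk2a1 (29.4 kb), Rybp (54.1 kb) and Csnk2a2 (61.3 kb) were the others. Of 18 Galnt genes, the glycosyltransferase family of Wbscr17, 3 had a body peak (Galnt2, Galntl4 and Galntl6, 1 each) and 10 had a peak within 100 kb of the start (16.7% and 55.6%), with Galnt14 the nearest at 3.1 kb. As a check of the tissue label, 10 of 11 genes of the dorsal telencephalon had a peak within 100 kb of the start, Eomes being the exception at 150.1 kb. So had 2 of 6 genes of the ventral telencephalon, Gad1 and Gsx2, and 2 of 8 genes of other tissues, Myod1 and Tnnt2. The median distance from the start to the nearest peak was 19.6 kb, 107.3 kb and 307.4 kb in the 3 lists.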

How the data were processed

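Dorsal cerebral wall of Swiss Webster embryos (0.15 g) was fixed by the authors in 1% formaldehyde for 15 min, and 30 µg of chromatin was precipitated with 4 µg of antibody. They aligned reads to mm9 with ELAND, keeping unique alignments, and ran MACS 1.4 with the input as control and no fitted model. Peaks at exons, near UCSC start sites or in suspected non-unique sequence were removed. In the deposited list a peak has a chromosome, a start, an end and a number, with no counts or scores, so neither depth nor peak strength could be weighed.

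Peaks were set on NCBIM37 (the mm9 assembly) and the 37310 genes of GENCODE vM1, 22367 of them coding and on the main chromosomes. The transcript whose coding sequence is longest set each gene's start. Motifs were matched by exact letters in the middle 500 bp, with Python 3.11.15, pysam 0.24.0 and scipy 1.17.1. In a simulation all of 200 planted sites per motif were found. The 17 patterns, genes, printed peaks and lists were set by a rule written with the paper and earlier results of these data known, and so were the members. Alternatives changed the peaks counted, the gene span and the sequence searched.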

Additional observations from a re-analysis of the deposited data

How the results depend on the processing

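Of 51 alternative values, 33 were classed as the same as the main one and 18 as moved, 17 of them numbers of peaks with a motif. A number of peaks with a motif was classed as moved when it differed from the main one by a ratio over 1.5. The class is coarse: CAGATG, with 21 peaks, counted as the same at 27 in whole peaks and 15 in the middle 300 bp. It also includes the Nfi and Rfx dimers, which stayed at 0. The share of peaks over 50 kb from a coding start went to 65.6% when any transcript start was used, an alternative added after seeing the data. Searching the whole peak gave 19 peaks for CAGCTG (59.4%, against 56.3% of all peaks), 22 for CAGGTG (68.8%, against 51.0%), 17 for ACAATG (53.1%, against 48.3%), 18 for ACAAAG (56.2%, against 66.3%), 4 for POU (12.5%, against 12.9%), 6 for AP-1 (18.8%, against 16.5%), 24 for Meis (75%, against 64.2%) and 15 for COUP-TF (46.9%, against 43.2%). All of these but ACAAAG, POU and Meis thus went from below the list to above it. Peaks of the locus are wider than those of the list, which gives more room for a match, and width was not allowed for. The middle 300 bp gave 3 for CAGGTG (9.38%, against 19.7%), 10 for the Nfi half-site (31.2%, against 31.7%), 5 for ACAATG (15.6%, against 18.1%), 4 for ACAAAG (12.5%, against 27.0%), 1 for POU (3.12%, against 5.26%), 4 for Tcf/Lef (12.5%, against 4.53%), 1 for Fox (3.12%, against 5.78%), 0 for AP-1 (against 5.17%) and 2 for COUP-TF (6.25%, against 11.0%). The Nfi half-site went from above the list to level with it, and CAGCTG from below to level (31.2%, against 31.0%). Joining peaks less than 5 kb apart left 30 in the locus and 27 in Auts2, and keeping those at least as wide as the median of all left 23 and 22. No paired analysis was possible because there was 1 library, which leaves no replicate to set aside. The list has no read counts, so a strong peak cannot be told from a weak one.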
